A study of Mus musculus with 9 samples.

Results

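Toll-like receptors are membrane proteins of innate immunity that recognise microbial lipids, proteins and nucleic acids and then recruit adaptor proteins through a shared cytoplasmic module, the TIR domain. Most of them signal through the adaptor Myd88 and the kinases Irak4 and Irak1 toward the transcription factor NF-kappaB. Tlr3, a sensor of double-stranded RNA, uses the adaptor Ticam1 (also called TRIF), and Tlr4, the receptor for bacterial lipopolysaccharide, uses both routes. In the brain the family is best known from microglia, but astrocytes, neurons and fibroblasts also express some of its members.

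The 10 genes described here were taken by symbol from the gene table: the receptors Tlr1, Tlr2, Tlr3, Tlr4 and Tlr6, the co-receptor Cd14, the adaptors Myd88 and Ticam1, and the kinases Irak1 and Irak4. They are 10 of 36410 listed genes, and all 10 were among the 13508 genes that passed the filter on low counts. Poly(A) RNA was sequenced from 3 mouse striatal cell lines labelled with the strain C57/BL6, with 3 libraries per line. The control line (STHdhQ7/Q7) carries 7 glutamines in both huntingtin alleles, the HD-het line (STHdhQ7/Q111) carries 7 in one allele and 111 in the other, and the HD-homo line (STHdhQ111/Q111) carries 111 in both; the long repeat was knocked in, and huntingtin is the protein mutated in Huntington disease. All 3 lines are immortalized cultures, and each genotype is represented by 1 line, so genotype and line cannot be told apart. The labels do not say that the 3 libraries of a line came from separate cultures, so the p-values may measure technical spread only. In such bulk RNA, fewer cells expressing a gene and less RNA per cell cannot be told apart.

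The libraries held 29507665 to 41197931 counts, and 3 counts, the limit that a count of 0 allows, corresponded to 0.0710 to 0.101 counts per 1000000 (CPM; counting error only). Huntingtin mRNA (Htt) itself was lower in both mutant lines, at 93.0 to 104 CPM in control, 61.1 to 64.0 CPM in HD-het and 19.2 to 21.7 CPM in HD-homo. The striatal label was not matched by all of its defining neuronal markers: Drd1 had no count in any library, and Drd2, Gad1, Rbfox3 and Snap25 had at most 3 counts in every library. Foxp1 had the highest level on that list, and Map2 and Tubb3 were also expressed. Their line means were 59.7 to 62.9 CPM for Map2 and 37.8 to 50.8 CPM for Tubb3. Fibroblast markers, led by the collagen gene Col1a1, differed between the lines and summed to 2569 to 3475 CPM in control, 7865 to 9103 CPM in HD-het and 6496 to 7017 CPM in HD-homo. Of the 7 on that list 6 were tested, with 5 higher and 0 lower in HD-homo than in control and 3 higher and 2 lower in HD-het than in control. Of all tested genes, 29.6% were higher and 28.9% lower in HD-homo, and 33.8% higher and 31.4% lower in HD-het. The collagen gene Col1a2 rose in HD-homo (log2 fold change 4.35) and fell in HD-het (-4.54), and Pdgfra, a growth factor receptor, rose in HD-homo (5.87) with -0.26 in HD-het (adjusted p = 0.124). Fibroblasts are among the cells known to express some of these receptors, and the part of the fibroblast genes' differences in the values of the 10 genes was not tested. Of the 15 macrophage and microglia markers, Aif1, Tyrobp, Adgre1, C1qa and C1qb had no count in any of the 9 libraries, and Itgam and Spi1 had at most 3. The macrophage list summed to 14.3 to 18.1 CPM in control, 45.9 to 58.0 CPM in HD-het and 15.8 to 17.0 CPM in HD-homo, of which Tmem119 alone made up 80.6%, 90.4% and 70.8%. Without Tmem119 the other 14 summed to 3.15 to 3.18 CPM, 3.86 to 6.68 CPM and 4.52 to 5.01 CPM. Lymphocyte, astrocyte, endothelial and oligodendrocyte markers summed to at most 0.404, 1.10, 1.55 and 2.89 CPM.

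The lines differed widely, and the counts of members have to be read against that background. Between HD-homo and control, edgeR's quasi-likelihood test called 58.6% of all tested genes at a Benjamini-Hochberg adjusted p under 0.05 (29.6% higher and 28.9% lower in HD-homo). Of the 10 members, 4 rose (Tlr2, Cd14, Myd88 and Irak4), 3 fell (Tlr1, Tlr3 and Tlr6) and 3 did not pass (Tlr4, Ticam1 and Irak1). Between HD-het and control the background was 65.1% (33.8% higher and 31.4% lower), and 3 members rose (Tlr2, Tlr3 and Irak1), 3 fell (Tlr1, Tlr6 and Cd14) and 4 did not pass. Between HD-homo and HD-het the background was 71.6% (36.0% higher and 35.6% lower), and 4 members were higher in HD-homo (Tlr4, Cd14, Myd88 and Irak4), 3 lower (Tlr1, Tlr3 and Irak1) and 3 not called. The share of members called was therefore close to that of all genes in each comparison. The libraries of the 2 lines did not overlap for 8 of 10 members between HD-homo and control, 9 of 10 between HD-het and control and 7 of 10 between HD-homo and HD-het, against 65.3%, 74.0% and 72.8% of all tested genes. The median log2 fold change of the members was 0.38, -0.03 and 0.15 in these comparisons, against 0.01, 0.03 and 0.00 for all genes. The comparisons share their libraries and are not independent of each other. In the text that follows, adjusted p-values are those of edgeR's quasi-likelihood test over all 13508 genes, and the error given with a log2 fold change is its standard error (SE).

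**Figure D1:**
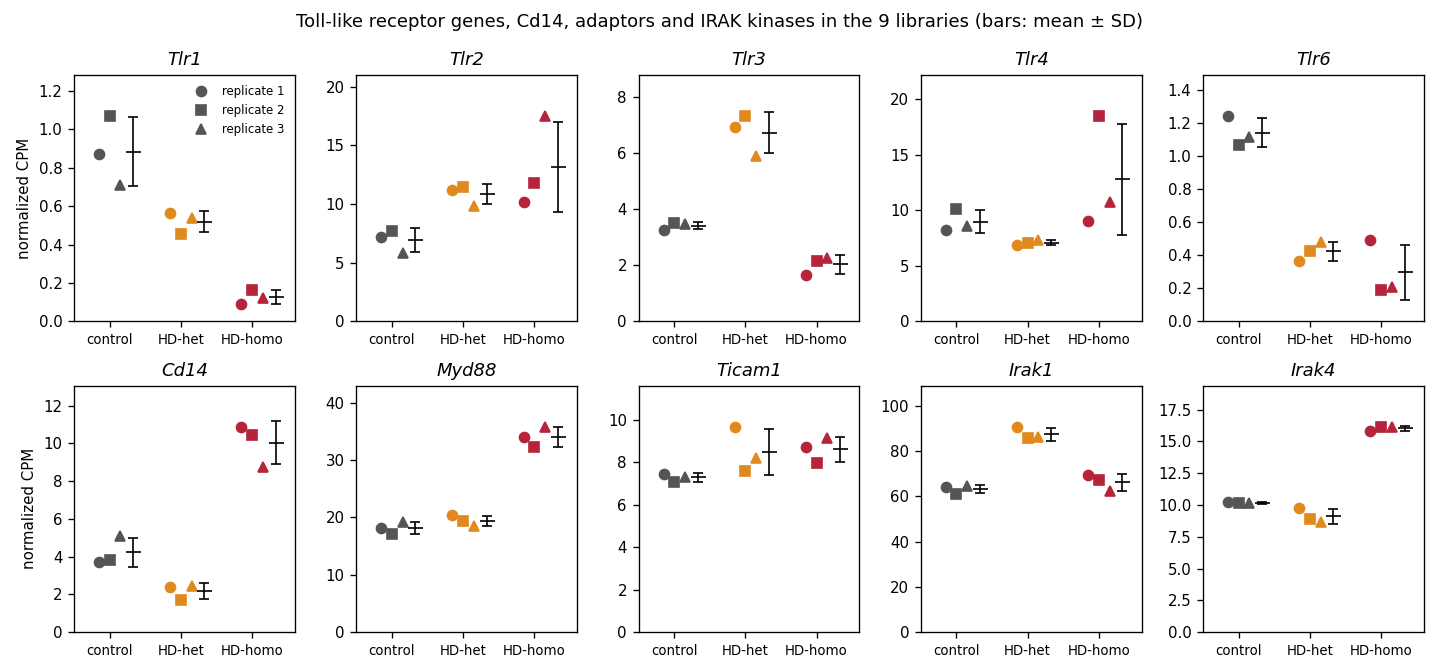
Normalized CPM of the 10 genes in each of the 9 libraries, with 1 panel per gene, a vertical axis that starts at 0, a symbol for each replicate number and a bar for the mean ± SD (n = 3). Tlr1 and Tlr6 were highest in control, Tlr3 and Irak1 in HD-het, and Cd14, Myd88 and Irak4 in HD-homo, in each case without overlap with the other 2 lines.

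Tlr1 and Tlr6 encode the partners that pair with Tlr2 to recognise bacterial lipoproteins. They are neighbours on chromosome 5 of GRCm38, both on the minus strand, at chr5:64924679-64933563 and chr5:64952031-64960097 in the GENCODE M21 annotation, and are close paralogues. Their coding sequences, of 2385 and 2418 bases, were identical at 73.1% of aligned positions, and at 91.5% over the last of 3 equal parts of the alignment. The longest stretch they share ran for 229 bases, from base 1468 to base 1696 of the Tlr1 coding sequence. The 30 coding bases in front of that stretch are given here from the GENCODE M21 transcripts (GRCm38), because they mark its edge. Capitals mark the 1 base that differs.
Tlr1, chr5:64925766-64925795, minus strand: tccaactccttaactgaccttcctgggtgC
Tlr6, chr5:64954057-64954086, minus strand: tccaactccttaactgaccttcctgggtgT

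Of all 50-base words in their transcripts, 15.4% for Tlr1 and 12.3% for Tlr6 also occur in transcripts of another gene. The pair shares 454 words, out of 512 such words for Tlr1 and 456 for Tlr6, and the rest occur in other genes. The words shared by the pair also lie outside the longest shared stretch. How reads from shared sequence were divided was the authors' counting step, so the split between both genes is uncertain, and their sum is given beside them.

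Tlr1 fell stepwise from control through HD-het to HD-homo. Its counts were 28, 36 and 21 in control, 20, 15 and 18 in HD-het and 3, 7 and 4 in HD-homo, which correspond to 0.871, 1.07 and 0.710 CPM, to 0.564, 0.457 and 0.539 CPM and to 0.0920, 0.166 and 0.119 CPM. The 3 lines did not overlap, and all 3 HD-homo libraries lay under the filter cutoff of 0.298 CPM, so the gene was tested through the other 2 lines. Tlr1 was 6.73-fold lower in HD-homo than in control (log2 fold change -2.75 ± 0.31 SE, adjusted p = 1.6e-05). Against HD-het it was 3.96-fold lower (log2 fold change -1.99 ± 0.34, adjusted p = 2.2e-04). The smaller step from control to HD-het, 1.70-fold (log2 fold change -0.77 ± 0.24, adjusted p = 0.0157), passed the threshold, but not with DESeq2 (adjusted p = 0.101) or once control replicate 2 (adjusted p = 0.0845) or HD-het replicate 2 (adjusted p = 0.0614) had been removed.

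Tlr6 was also lower in both mutant lines. Its counts were 40, 36 and 33 in control, 13, 14 and 16 in HD-het and 16, 8 and 7 in HD-homo, or 1.24, 1.07 and 1.12 CPM, 0.367, 0.427 and 0.479 CPM and 0.491, 0.189 and 0.209 CPM. Every mutant library lay under every control library, whereas HD-homo replicate 1 exceeded all 3 HD-het libraries and the other 2 HD-homo libraries lay under them. Against control, Tlr6 was 3.93-fold lower in HD-homo (log2 fold change -1.97 ± 0.31, adjusted p = 2.3e-04) and 2.69-fold lower in HD-het (-1.43 ± 0.30, adjusted p = 0.00127). The difference between the mutant lines (-0.55, 95% interval -1.34 to 0.25, adjusted p = 0.190) did not pass; without HD-homo replicate 1 it was -1.08 (adjusted p = 0.0132), and without HD-homo replicate 2 it was -0.28 (adjusted p = 0.524). The summed counts of Tlr1 and Tlr6 fell by 2.27 on the log2 scale in HD-homo (adjusted p = 6.0e-06) and by 1.10 in HD-het (adjusted p = 5.6e-04) against control.

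Tlr2, the common partner of Tlr1 and Tlr6, moved the other way. It lies at chr3:83836272-83841767 (minus strand) and shares no 50-base word with another gene. It stood at 7.22, 7.73 and 5.82 CPM in control, 11.2, 11.5 and 9.85 CPM in HD-het and 10.2, 11.8 and 17.5 CPM in HD-homo. All mutant libraries exceeded all control libraries, and the mutant lines overlapped, with HD-homo replicate 3 the highest of the 9. The increase over control was 1.90-fold in HD-homo (log2 fold change 0.92 ± 0.19, adjusted p = 0.00133) and 1.56-fold in HD-het (0.64 ± 0.19, adjusted p = 0.0106). The difference between the mutant lines was 0.28 (95% interval -0.11 to 0.68, adjusted p = 0.181); it was 0.43 without HD-homo replicate 1 (adjusted p = 0.0433) and 0.02 without HD-homo replicate 3 (adjusted p = 0.882).

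The balance within this receptor group was compared per length, as CPM per kilobase of exon. The ratio of Tlr2 to the sum of Tlr1 and Tlr6 was 4.03, 4.22 and 3.77 in the control libraries, 13.9, 15.1 and 11.3 in HD-het and 21.3, 39.0 and 63.4 in HD-homo. The 3 lines did not overlap in this ratio, and its mean exceeded that of control by 3.35-fold in HD-het and by 10.3-fold in HD-homo. The spread in HD-homo was wide (41.2 ± 21.1, SD, n = 3), since Tlr1 and Tlr6 had few counts there. An exact two-sided permutation test gave p = 0.1 for each pair of lines, the smallest value that 3 against 3 libraries allow. Because the sum of Tlr1 and Tlr6 was used, the ratio does not depend on how shared reads were split between these 2 genes, apart from their difference in length.

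**Figure D2:**
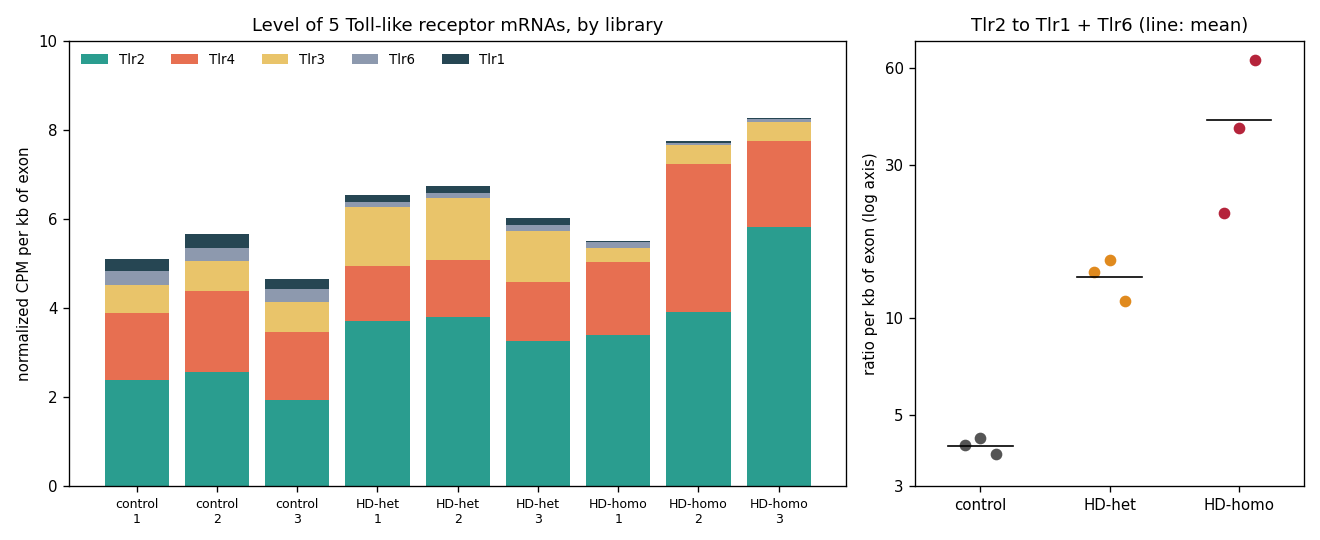
Left, normalized CPM per kilobase of exon for the 5 receptor mRNAs, stacked for each library from an axis that starts at 0; right, the ratio of Tlr2 to Tlr1 and Tlr6 per kilobase on a log axis, with 1 point per library and a line for the mean of 3. Tlr2 made up 44.6 ± 2.76% of the summed receptor level in control, 55.9 ± 1.29% in HD-het and 60.8 ± 9.93% in HD-homo (mean ± SD, n = 3). The Tlr1 share went from 5.11% to 2.43% and 0.523%.

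Tlr3, the endosomal sensor of double-stranded RNA, was highest in the heterozygous line. The gene is at chr8:45395665-45411080 (minus strand). It stood at 3.27, 3.51 and 3.45 CPM in control, 6.94, 7.32 and 5.90 CPM in HD-het and 1.66, 2.15 and 2.27 CPM in HD-homo. The 3 lines did not overlap, with HD-het highest and HD-homo lowest. Tlr3 was 1.97-fold higher in HD-het than in control (log2 fold change 0.98 ± 0.14, adjusted p = 9.1e-05), 1.68-fold lower in HD-homo than in control (-0.75 ± 0.15, adjusted p = 0.00146) and 3.30-fold lower in HD-homo than in HD-het (-1.72 ± 0.15, adjusted p = 1.0e-06). Its share of the summed receptor level per kilobase was 12.8% in control, 20.0% in HD-het and 5.46% in HD-homo.

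Tlr4, at chr4:66827584-66930284 (plus strand), is the lipopolysaccharide receptor. It stood at 8.24, 10.1 and 8.55 CPM in control, 6.85, 7.04 and 7.34 CPM in HD-het and 9.07, 18.5 and 10.7 CPM in HD-homo. HD-homo replicate 2 stood far above all other libraries, and the other 2 HD-homo libraries lay near the control range. The difference between HD-homo and control was 0.51 on the log2 scale (95% interval 0.04 to 0.99) and did not pass after adjustment (adjusted p = 0.0621). Without HD-homo replicate 2 it was 0.14 (adjusted p = 0.343), and it passed in 5 of 19 alternatives: without HD-homo replicate 1 (0.71, adjusted p = 0.0108), without HD-homo replicate 3 (0.63, adjusted p = 0.0367), under a replicate block (0.48, adjusted p = 0.0361), with DESeq2 (0.51, adjusted p = 0.0417) and with no filter on low counts (0.52, adjusted p = 0.0498). HD-homo exceeded HD-het with that library (log2 fold change 0.86 ± 0.22, adjusted p = 0.00445) and without it (0.49, adjusted p = 0.00416). Every HD-het library lay under every control library, and that difference was -0.34 (95% interval -0.84 to 0.15, adjusted p = 0.200); without HD-homo replicate 2, which shares the estimate of the spread, its adjusted p was 0.0173. HD-homo replicate 2 was the most deeply sequenced library and was also the highest of its line for the chemokine genes Ccl2 (138, 321 and 77.0 CPM in HD-homo replicates 1, 2 and 3), Ccl7 (57.6, 130.0 and 40.0 CPM) and Cxcl1 (75.4, 138 and 76.7 CPM); the part of this library's state in the Tlr4 value was not tested.

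Cd14, a surface protein that hands lipopolysaccharide to the Tlr4 complex, had the largest log2 difference between the mutant lines of the 10 genes. It stood at 3.73, 3.84 and 5.11 CPM in control, 2.40, 1.68 and 2.43 CPM in HD-het and 10.9, 10.5 and 8.77 CPM in HD-homo. The 3 lines did not overlap, with HD-het lowest and HD-homo highest. Relative to control, Cd14 was raised 2.38-fold in HD-homo (log2 fold change 1.25 ± 0.16, adjusted p = 5.5e-05) and lowered 1.94-fold in HD-het (-0.96 ± 0.18, adjusted p = 7.6e-04). Between the mutant lines the difference was 4.62-fold (2.21 ± 0.17, adjusted p = 5.7e-07). Cd14 is a monocyte and macrophage marker in many tissues. Of the 15 macrophage and microglia markers 4 were tested, with 1 higher and 1 lower in HD-homo than in control and 2 higher and 1 lower in HD-het than in control. Of all tested genes, 29.6% were higher and 28.9% lower in HD-homo, and 33.8% higher and 31.4% lower in HD-het. Csf1r, a growth factor receptor of macrophages, rose with Cd14 in HD-homo, from 0.404, 0.654 and 0.575 CPM in control to 2.12, 1.63 and 2.36 CPM (log2 fold change 1.89, adjusted p = 3.8e-05), with 0.761, 0.579 and 0.659 CPM in HD-het. Cd68, a lysosomal protein of macrophages, stood at 1.64 to 1.93 CPM in control, 2.42 to 2.48 CPM in HD-homo and 2.62 to 4.79 CPM in HD-het; its lines did not overlap, and the test called it higher in HD-het (0.93, adjusted p = 0.00297) but not in HD-homo (0.43, adjusted p = 0.117). The other tested markers went differently from Cd14. P2ry12 had 10 to 18 counts in control, 2 to 8 in HD-het and 0 to 4 in HD-homo. Tmem119 stood at 11.1 to 14.9 CPM in control, 41.8 to 51.3 CPM in HD-het and 10.8 to 12.3 CPM in HD-homo. Aif1, Adgre1, Tyrobp, C1qa and C1qb had no count in any library. The part of the macrophage markers in the Cd14 value was not tested.

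**Figure D3:**
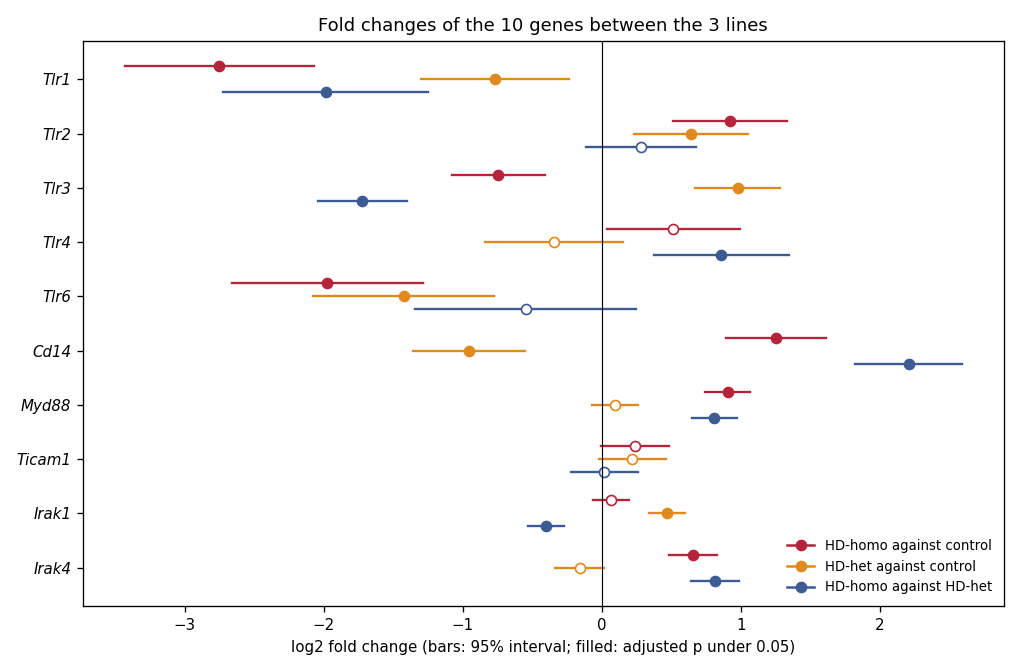
Log2 fold changes of the 10 genes in 3 comparisons, with 95% intervals from the edgeR fit; filled points passed an adjusted p of 0.05 and open points did not. Tlr3 and Cd14 changed in opposite directions in HD-homo and HD-het against control, whereas Tlr1, Tlr2 and Tlr6 changed in the same direction in both.

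Myd88, Ticam1, Irak4 and Irak1, the adaptors and kinases among the 10 genes, differed between lines by at most 1.88-fold. Myd88, at chr9:119335934-119341411 (minus strand), stood at 18.1, 17.1 and 19.2 CPM in control, 20.3, 19.4 and 18.5 CPM in HD-het and 34.0, 32.3 and 35.8 CPM in HD-homo. The control and HD-het ranges overlapped, and HD-homo lay above both. HD-homo exceeded control by 1.88-fold (log2 fold change 0.91 ± 0.07, adjusted p = 1.2e-06) and HD-het by 1.75-fold (0.81 ± 0.07, adjusted p = 1.8e-06), while HD-het and control differed by 0.10 (95% interval -0.07 to 0.26, adjusted p = 0.267).

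Ticam1, the adaptor of Tlr3, at chr17:56269319-56276786 (minus strand), passed in no comparison. It stood at 7.47, 7.08 and 7.30 CPM in control, 9.67, 7.59 and 8.18 CPM in HD-het and 8.71, 7.98 and 9.13 CPM in HD-homo. All 6 mutant libraries lay above the 3 control libraries, and the mutant lines overlapped. The differences from control were 0.24 for HD-homo (95% interval -0.0038 to 0.48, adjusted p = 0.0836) and 0.22 for HD-het (-0.02 to 0.46, adjusted p = 0.101). Per kilobase of exon, Myd88 exceeded Ticam1 by 2.89 ± 0.14-fold in control (SD, n = 3), 2.68 ± 0.27-fold in HD-het and 4.60 ± 0.09-fold in HD-homo; HD-homo did not overlap the other lines (exact two-sided permutation p = 0.1 against each).

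The kinases Irak4 and Irak1, which act in sequence after Myd88, changed in different mutant lines. Irak4, at chr15:94543643-94581815 (plus strand), stood at 10.3, 10.1 and 10.1 CPM in control, 9.78, 8.90 and 8.66 CPM in HD-het and 15.8, 16.1 and 16.2 CPM in HD-homo. The 3 lines did not overlap. The Irak4 level of HD-homo exceeded control by 1.57-fold (log2 fold change 0.65 ± 0.08, adjusted p = 2.8e-05) and HD-het by 1.76-fold (0.81 ± 0.08, adjusted p = 3.1e-06), and the difference between HD-het and control, -0.16, did not pass (95% interval -0.34 to 0.02, adjusted p = 0.103). Irak1, at chrX:74013914-74023918 (minus strand), had the highest level of the 10 genes in every line, with 64.3, 61.3 and 64.5 CPM in control, 90.9, 85.7 and 86.3 CPM in HD-het and 69.3, 67.3 and 62.2 CPM in HD-homo. HD-het lay above both other lines, which overlapped. Irak1 was 1.38-fold higher in HD-het than in control (0.47 ± 0.06, adjusted p = 3.4e-05) and 1.32-fold lower in HD-homo than in HD-het (-0.40 ± 0.06, adjusted p = 7.9e-05); HD-homo and control differed by 0.07 (95% interval -0.06 to 0.20, adjusted p = 0.356). Per kilobase, the Irak1 to Irak4 ratio was 6.62 ± 0.17 in control, 10.2 ± 0.36 in HD-het and 4.41 ± 0.29 in HD-homo, with no overlap between lines.

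The order of the 10 genes by level per kilobase of exon kept Irak1 and Myd88 at the top of all 3 lines. Irak1 stood at 13.4 ± 0.38, 18.6 ± 0.61 and 14.1 ± 0.78 CPM per kilobase in control, HD-het and HD-homo, and Myd88 at 7.04 ± 0.41, 7.54 ± 0.35 and 13.2 ± 0.68 (SD, n = 3). These genes overlapped only in HD-homo. In control Cd14, Ticam1, Tlr2 and Irak4 followed, at 2.44, 2.43, 2.30 and 2.03 CPM per kilobase, and each of them overlapped its neighbour in that order. In HD-het Cd14 dropped to the eighth place at 1.25 CPM per kilobase, where it overlapped Tlr4 (1.27), which in turn overlapped Tlr3 (1.29). In HD-homo Cd14 held the third place at 5.80 CPM per kilobase and overlapped Tlr2 (4.37). Tlr1 and Tlr6 were the lowest of the 10 genes in every line.

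The position of the heterozygous line was tested against the midpoint of control and HD-homo on the log2 scale, where 70.2% of all genes passed (36.8% higher and 33.4% lower). Of the 10 members, 3 lay above the midpoint, 4 below it and 3 did not pass. Tlr3 (1.35 ± 0.12, adjusted p = 1.5e-06) and Irak1 (0.43 ± 0.05, adjusted p = 1.3e-05) lay above it, and both were also above control and HD-homo themselves. Cd14 (-1.58 ± 0.16, adjusted p = 5.0e-06), Irak4 (-0.49 ± 0.07, adjusted p = 7.6e-05), Myd88 (-0.36 ± 0.06, adjusted p = 4.7e-04) and Tlr4 (-0.60 ± 0.20, adjusted p = 0.0174) lay below it, Myd88 close to the control level. The excess of Tlr1 (0.61 ± 0.25, adjusted p = 0.0446) held in 4 of 16 alternatives (adjusted p from 0.0345 to 0.166), and the summed counts of Tlr1 and Tlr6 lay 0.04 from the midpoint (adjusted p = 0.876). The Tlr4 call was lost in 3 of 18 alternatives: without HD-het replicate 1 (-0.58, adjusted p = 0.0598), without HD-het replicate 2 (-0.60, adjusted p = 0.0530) and without replicate 3 of control and HD-het together (-0.65, adjusted p = 0.0573). Tlr2 (0.18, adjusted p = 0.323), Tlr6 (-0.44, adjusted p = 0.194) and Ticam1 (0.10, adjusted p = 0.357) did not differ from the midpoint beyond the spread, although Tlr2 passed without HD-homo replicate 3 (0.31, adjusted p = 0.0208).

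Promoter sequence was searched because NF-kappaB and interferon regulatory factors (IRFs) act downstream of these receptors. RefSeq promoters (GRCm38.p6, from 250 bases before to 50 after a start site) were found for 8 of the 10 genes, with 11 start sites in all; Tlr4 and Cd14 had no entry. An NF-kappaB-like word (GGNNNTTCC, either strand) was present for 4 of these 8 genes, against 20.7% of all 27025 genes with a promoter entry, and at 4 of 11 start sites, against 18.5% of all 32851 promoters. An IRF-like word (GAAANNGAA, either strand) was present for 2 of 8 genes, against 9.76% of all genes, and at 2 of 11 start sites, against 8.56% of all promoters. The genes with the NF-kappaB-like word were Tlr2, Tlr3, Tlr6 and Myd88. The windows around the matches in Tlr2, Tlr3 and Myd88 are printed because these genes changed in different directions while carrying the same kind of word; each runs 5′ to 3′ on the gene's strand, with the match in capitals.
Tlr2, NF-kappaB-like, chr3:83841762-83841790, minus strand: aggacacctgGGGAATTCCcacacggagc
Tlr3, NF-kappaB-like, chr8:45410572-45410600, minus strand: gttgtttctgGGAGTTTCCtgcttttgag
Myd88, NF-kappaB-like (on the opposite strand), chr9:119339996-119340024, minus strand: aagggaagtaGGAAACTCCacaggcgagc
Myd88, IRF-like, chr9:119340040-119340068, minus strand: gagcttctcgGAAAGCGAAagaaggaggg

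The Tlr2 match began 172 bases before the start site and was matched again on the other strand 1 base further on, since the word is nearly the same in both directions. The Tlr3 match began 210 bases before the start, the IRF-like match of Myd88 40 bases before it and the NF-kappaB-like match of Myd88 4 bases after it. Tlr6 carried 2 overlapping IRF-like words at one start site and an NF-kappaB-like word at the other. Against control, Tlr2 was higher in both mutant lines, Myd88 was higher in HD-homo with no call in HD-het, Tlr3 was higher in HD-het and lower in HD-homo, and Tlr6 was lower in both. These matches are letters in a window and were not tested as binding sites.

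Of the other Toll-like receptors, no gene passed the filter. Tlr9, the sensor of unmethylated CpG DNA, had no count in any library, nor had Tlr11 or Tlr12, which allows at most 0.101 CPM in any one library. Tlr8 had 1 count over all 9 libraries and Tlr13 at most 2 in a library. Tlr7, which senses single-stranded RNA, had 8, 5 and 2 counts in control, 8, 7 and 6 in HD-het and 1, 2 and 2 in HD-homo. Tlr5, the flagellin receptor, had at most 1 count in control and HD-het libraries and 2, 8 and 6 in HD-homo. These counts are too low for a comparison at this depth.

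Genes that help the receptors to fold, travel or bind their ligands moved unevenly. Of 10 listed, 7 were tested, with 3 higher and 0 lower in HD-homo than in control and 4 higher and 1 lower in HD-het than in control. The shares of all genes were 29.6% higher and 28.9% lower in HD-homo, and 33.8% higher and 31.4% lower in HD-het. Of these 7, Unc93b1 and Lbp reached the filter only through HD-homo and Rftn1 only through HD-het, the lines in which they were high, so that being tested already implied a difference. Of the 5 genes other than Unc93b1 and Lbp, 1 was higher and 0 lower in HD-homo than in control. The HD-het counts include Rftn1. Unc93b1, which carries the endosomal receptors to their compartment, had 2, 7 and 4 counts in control, 17, 9 and 11 in HD-het and 76, 80 and 51 in HD-homo. Its log2 fold change against control was 3.78 in HD-homo and 1.39 in HD-het (adjusted p = 0.018 for HD-het). Rftn1 (raftlin), a protein of membrane rafts implicated in Tlr3 and Tlr4 uptake, had 126, 104 and 119 counts in HD-het and none in the other 6 libraries. Its level in HD-het exceeded control by at least 36.2-fold and HD-homo by at least 40.7-fold, computed against 3 counts per library. Lbp, the lipopolysaccharide-binding protein, had at most 3 counts in control libraries and 15, 22 and 35 in HD-homo, a rise of at least 7.13-fold. Ly96 (MD-2), the Tlr4 partner that binds lipopolysaccharide, rose in HD-het (0.43, adjusted p = 0.0332) with 0.18 in HD-homo (adjusted p = 0.362). The chaperone Hsp90b1 (gp96) differed from control by less than 0.05 in either line, its cofactor Cnpy3 fell in HD-het (-0.26, adjusted p = 0.0108), and Cnpy4 rose in HD-homo (0.52, adjusted p = 1.1e-05) and HD-het (0.45, adjusted p = 3.2e-05). Cd36, Cd180 and Ly86 had at most 3 counts in every library. Per kilobase, the ratio of Tlr4 to Ly96 was 0.710 ± 0.13 in control (SD, n = 3), 0.411 ± 0.02 in HD-het and 0.866 ± 0.24 in HD-homo, so that HD-het lay below both other lines.

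Of the 4 other TIR-domain adaptors listed, 3 were tested. All 3 fell in HD-homo against control, where 28.9% of all genes were lower, and 2 of 3 (Tirap and Sarm1) fell in HD-het, where 31.4% were lower. Tirap, which bridges Tlr2 and Tlr4 to Myd88, fell by 0.22 in HD-homo (adjusted p = 0.0142) and by 0.40 in HD-het (adjusted p = 2.5e-04). Sarm1, an NAD-cleaving TIR protein known for axon degeneration, had 37, 40 and 45 counts in control, 28, 28 and 29 in HD-het and 17, 21 and 17 in HD-homo; it fell by 1.33 (adjusted p = 1.6e-04) and by 0.62 (adjusted p = 0.0133) against control. Pik3ap1 (BCAP), which links the receptors to phosphoinositide 3-kinase, fell in HD-homo (-2.28, adjusted p = 7.7e-04), with -0.54 in HD-het (adjusted p = 0.178). Ticam2, the Tlr4 adaptor TRAM, had at most 2 counts in every library.

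Further along the pathway, the 18 listed kinases and ubiquitin ligases were all tested. In HD-homo 5 rose and 4 fell against control, and in HD-het 3 rose and 9 fell, with medians of -0.02 and -0.16. The shares of all genes were 29.6% higher and 28.9% lower in HD-homo, and 33.8% higher and 31.4% lower in HD-het. Irak2, a Myd88 complex kinase that acts beside Irak1, had 786, 814 and 676 counts in control, 1708, 1597 and 1705 in HD-het and 321, 463 and 340 in HD-homo. It fell in HD-homo (-1.21, adjusted p = 6.9e-08) and rose in HD-het (1.05, adjusted p = 2.1e-07) against control, so its ratio to Irak1 per kilobase was 0.403 ± 0.02, 0.602 ± 0.03 and 0.167 ± 0.01 in control, HD-het and HD-homo. Ikbke, a kinase of the IRF3 branch, rose in both (2.09, adjusted p = 1.7e-06, and 1.25, adjusted p = 1.2e-04). Peli2, an E3 ligase of the IRAK complex, rose in HD-homo (1.59, adjusted p = 9.9e-06). Tab1, a subunit of the Tak1 kinase complex, fell in HD-homo (-0.29, adjusted p = 0.00955) and HD-het (-0.75, adjusted p = 1.1e-05). Ube2n (Ubc13), an E2 enzyme for the ubiquitin chains used in this pathway, fell in HD-het (-0.77, adjusted p = 4.2e-07). Between the mutant lines 10 of 18 were higher and 2 lower in HD-homo, against 36.0% and 35.6% of all genes. In that comparison Irak2 had the largest decrease (-2.25, adjusted p = 3.5e-10) and Ikbkg (NEMO) was also lower in HD-homo (-0.46, adjusted p = 2.4e-04). Peli2 (1.41, adjusted p = 1.4e-05) and Ikbke (0.84, adjusted p = 6.3e-04) were higher.

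Of the 11 listed brakes on the pathway, 6 rose and 2 fell in each mutant line against control, with medians of 0.24 in HD-homo and 0.18 in HD-het. Among all genes, 29.6% rose and 28.9% fell in HD-homo, and 33.8% rose and 31.4% fell in HD-het. Irak3 (IRAK-M), an IRAK without strong kinase activity that restrains the Myd88 complex, had 8, 7 and 2 counts in control, 16, 23 and 21 in HD-het and 39, 64 and 47 in HD-homo, and rose by 2.93 (adjusted p = 1.7e-05) and by 1.71 (adjusted p = 0.00185). Tollip, an IRAK-binding inhibitor, fell in HD-homo (-0.36, adjusted p = 1.6e-04) and rose in HD-het (0.73, adjusted p = 5.7e-07). Nlrx1, a mitochondrial NLR protein, likewise fell in HD-homo (-1.12, adjusted p = 0.00358) and rose in HD-het (1.29, adjusted p = 3.3e-04). Socs1 (-1.25, adjusted p = 1.7e-05) and the deubiquitinase Cyld (-0.44, adjusted p = 0.00159) fell in HD-het. Sigirr, an inhibitory receptor that also belongs to the IL-1 receptor family, rose in HD-het (1.75, adjusted p = 0.00113), with 0.95 in HD-homo (adjusted p = 0.0502). Between the mutant lines 7 of 11 were higher and 3 lower in HD-homo, against 36.0% and 35.6% of all genes. These were led by Socs1 (1.44, adjusted p = 3.7e-06) and Irak3 (1.21, adjusted p = 0.00151) upward and by Nlrx1 (-2.42, adjusted p = 3.9e-06) and Tollip (-1.09, adjusted p = 1.3e-08) downward.

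The IL-1 receptor family shares the TIR domain and the Myd88 and IRAK route, and 7 of its 10 listed genes were tested. In HD-homo 3 rose and 2 fell against control, and in HD-het 5 rose and 1 fell, counts that include Il1rl2. Among all genes, 29.6% rose and 28.9% fell in HD-homo, and 33.8% rose and 31.4% fell in HD-het. Il1rl1 (ST2), the receptor for interleukin-33 that is also on the list of brakes, was measured at 787 ± 145 CPM in control, 1113 ± 107 CPM in HD-het and 2475 ± 184 CPM in HD-homo. It rose in both mutant lines (1.65, adjusted p = 7.8e-07, and 0.50, adjusted p = 0.00447). Il1r1, the interleukin-1 receptor, rose by 1.52 in HD-homo (adjusted p = 1.0e-06) and by 1.51 in HD-het (adjusted p = 1.2e-06). Il18rap, a subunit of the interleukin-18 receptor, fell from 143 ± 15.4 CPM in control to 58.2 ± 12.9 CPM in HD-het and 21.2 ± 5.79 CPM in HD-homo (adjusted p = 1.3e-04 and 6.0e-07). Il1rap, the shared accessory chain, fell in HD-homo (-0.74, adjusted p = 1.5e-05). Il1rl2, the interleukin-36 receptor, had at most 1 count in control libraries, which HD-het exceeded by at least 15.9-fold and HD-homo by at least 4.81-fold; it reached the filter only through HD-het. Of the 7 tested, 1 was higher in the homozygous than in the heterozygous line (Il1rl1, 1.15, adjusted p = 8.5e-06) and 4 were lower, against 36.0% and 35.6% of all genes. Among the lower ones were Il18rap (-1.46, adjusted p = 5.6e-05) and Il1rl2 (-1.70), for which being tested already implied a difference.

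Genes known to be induced by NF-kappaB split between the mutant lines. In HD-homo 15 of 21 tested rose and 2 fell against control, with a median of 0.86. In HD-het 6 rose and 11 fell, with a median of -0.67 (-0.58 with genes near 0 counts set to their bound). Of all genes, 29.6% rose and 28.9% fell in HD-homo, and 33.8% rose and 31.4% fell in HD-het. Cxcl5 and Lcn2 reached the filter only through HD-homo. Of the other 19, 14 rose and 2 fell in HD-homo, with a median of 0.82. Il6 reached it only through HD-het, where it was high, and Ccl20 only through control and HD-het together. The HD-het counts and those between the mutant lines include these genes. Between the mutant lines, with Cxcl5 and Lcn2 included, 15 were higher and 4 lower in HD-homo, against 36.0% and 35.6% of all genes. Among the lower ones were Vcam1 (-1.51, adjusted p = 2.5e-07) and Zfp36, which destabilises cytokine mRNAs (-0.87, adjusted p = 6.7e-05). Tnfaip2 rose in both (5.48, adjusted p = 2.8e-10, and 3.42, adjusted p = 2.0e-08), from 73, 77 and 87 counts in control to 965, 942 and 807 in HD-het and 4078, 3782 and 3974 in HD-homo. The neutrophil chemokine Cxcl1 rose in HD-homo (4.44, adjusted p = 5.8e-08) and fell in HD-het (-1.39, adjusted p = 0.0026). The monocyte chemokine Ccl2 stood at 76.4, 74.5 and 92.4 CPM in control and 9.62, 11.3 and 7.31 CPM in HD-het, a fall of 3.11 (adjusted p = 8.5e-05), and Ccl7 fell by 3.05 (adjusted p = 6.1e-05). Vcam1, an adhesion molecule, fell in both mutant lines (-3.56, adjusted p = 4.2e-10, and -2.05, adjusted p = 3.1e-08). Birc3 rose in HD-het (1.76, adjusted p = 5.5e-05), and Sod2 fell slightly in HD-homo (-0.19, adjusted p = 0.0114). Bcl3 had at most 2 counts in HD-het libraries, and HD-homo exceeded them by at least 80.4-fold.

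Of the 11 listed genes induced through IRF3, 10 were tested. Of these, 5 (Ccl5, Ifit1, Oasl1, Oasl2 and Rsad2) reached the filter only through HD-homo, where they were high. Being tested already implied a rise there, and their calls are not counted for this list. Of the other 5, 4 rose in HD-homo against control, namely Cxcl10 (log2 fold change 7.95, adjusted p = 5.7e-09), Irf7 (6.92, adjusted p = 2.9e-07), Isg15 (4.64, adjusted p = 1.4e-08) and Ifit3 (4.09, adjusted p = 1.3e-08), and 1 fell. In HD-het against control, Irf7, Ifit3 and Isg15 of the same other 5 rose and 0 fell. Among all genes, 29.6% were higher than control in HD-homo and 33.8% in HD-het. The chemokine Ccl5 had at most 2 counts in control and 1631, 2385 and 1868 in HD-homo, a rise of at least 571-fold. Oasl1 had no count in control or HD-het and 229, 384 and 243 in HD-homo, which exceeds control by at least 82.3-fold. Ifit2 was the gene that fell (-0.46, adjusted p = 0.0475), with counts of 886, 967 and 851 in control against 513, 1214 and 566 in HD-homo, so that the lines overlapped. Over all 8 lists, on which Il1rl1, Sigirr and Tnfaip3 stand more than once, 74 of 94 genes were tested. In HD-homo 39 were higher and 14 lower than in control, against 29.6% and 28.9% of all genes. In HD-het 26 were higher and 26 lower than in control, against 33.8% and 31.4%. Between the mutant lines 44 were higher and 16 lower in HD-homo, against 36.0% and 35.6%. The same shares of all genes apply to the single lists. These counts include the genes that reached the filter through 1 line only. For HD-homo these were Lbp, Unc93b1, Cxcl5, Lcn2, Ifit1, Ccl5, Rsad2, Oasl1 and Oasl2. For them being tested already implied a rise in HD-homo, so the excess of higher genes there was in part set by the filter.

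**Figure D4:**
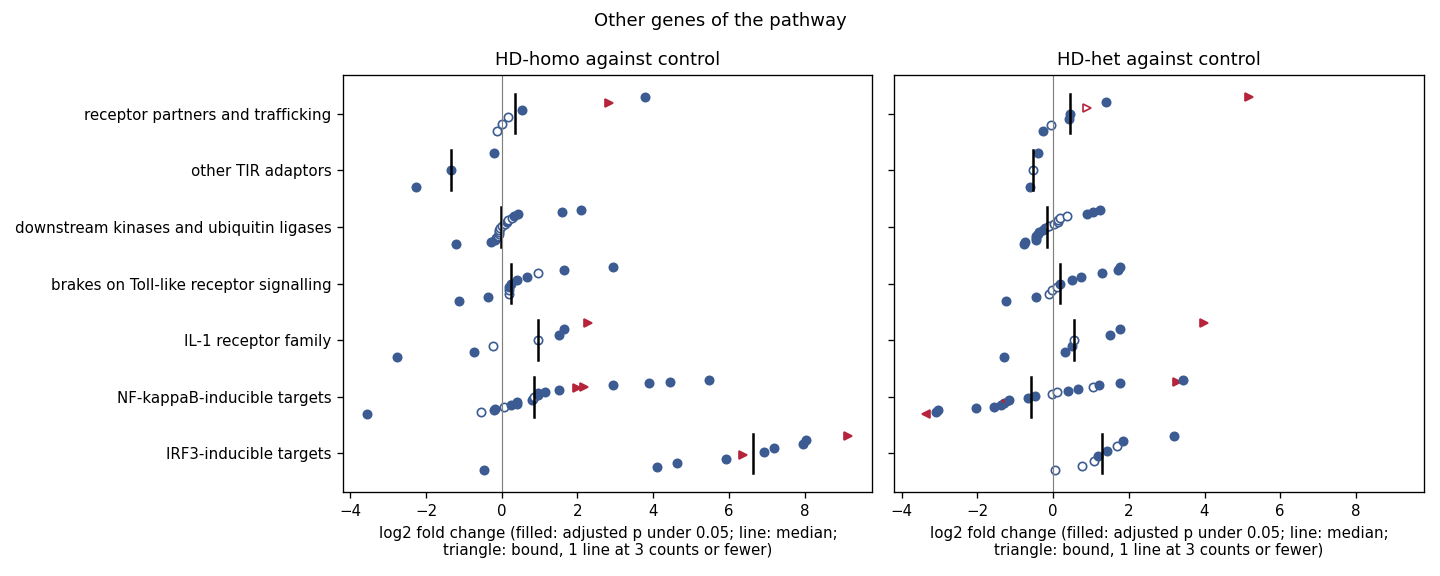
Log2 fold changes of the other pathway genes by list, for HD-homo and HD-het against control; filled symbols passed an adjusted p of 0.05, triangles are bounds where 1 line had at most 3 counts in all libraries, genes at that level in both lines are not drawn, and vertical lines are medians of what is drawn, genes tested through 1 line only included. Of the IRF3-inducible targets, Ccl5, Ifit1, Oasl1, Oasl2 and Rsad2 were tested only through HD-homo, where they were high. Of the other 5, 4 rose and 1 fell in HD-homo. The NF-kappaB-inducible targets lie on both sides of 0 in HD-het.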

How the data were processed

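Libraries of poly(A) RNA were strand-specific per the labels. The submitters' notes name cutadapt, Bowtie 1.1.2, RSEM 1.3.0, DESeq2 and the builds GRCm38.p5 and mm10 without giving roles, and the annotation is not given in the sources used here. The authors deposited 1 table of whole-number counts per gene symbol, which may be rounded estimates. Genes were filtered with filterByExpr (minimum 10 counts), normalized by TMM and tested in edgeR 4.0.16 (R 4.3.3, limma 3.58.1) with glmQLFit and glmQLFTest over all 9 libraries, 1 mean per line and no replicate block. Adjusted p-values are Benjamini-Hochberg over 13508 genes, with a threshold of 0.05. CPM are per 1000000 counts in tested genes after TMM, and CPM per kilobase use GENCODE M21 merged exons, which may differ from the authors' gene models. Alternatives were DESeq2 1.42.0, other scalings, filters and prior counts, and each library left out. On data simulated for HD-homo against control (12007 genes), the test recovered 198 of 200 changed genes, and 7.48% of its calls were false. The simulated data had 1 fixed spread for all genes, few changed genes and no genes with low control counts. The real data differ in all of these, so the rates do not carry over to the calls reported here.

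The 10 members and all gene lists were chosen with earlier results of these data known. All 10 genes were named throughout, with all listed other receptors, partners and adaptors, and of each other list the 2 largest increases and decreases past the threshold at 1 CPM or more. All 167 listed symbols matched GENCODE M21 and RefSeq. Same-numbered libraries of different lines were not treated as pairs. No pair of libraries agreed within counting error (variance 2.19 to 38.9 times that of counting).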

Additional observations from a re-analysis of the deposited data

How the results depend on the processing

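The replicate numbers gave correlations of deviations between same-numbered libraries of 0.00893 to 0.0332 for HD-homo and control, 0.0488 to 0.145 for HD-het and control and -0.00532 to 0.133 for the mutant lines, so the numbers were not taken as pairs. In the first 2 of these comparisons each of 6 libraries correlated best with its own number, and in the third 4 of 6 did. A replicate block called 8, 6 and 7 members (without it 7, 6 and 7) and 6 instead of 7 against the midpoint; it brought Tlr4 past the threshold in HD-homo against control (0.48, adjusted p = 0.0361) and lost Tlr1 against the midpoint (0.62, adjusted p = 0.0532).

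A further threshold of 1 on the absolute log2 fold change left 3, 1 and 3 members in HD-homo against control, HD-het against control and HD-homo against HD-het, and 2 against the midpoint, and left 31, 28 and 38 pathway genes. Leaving out each library in turn gave 7 to 8, 5 to 7 and 7 to 9 members, 5 to 7 against the midpoint, and 47 to 53, 48 to 54 and 56 to 60 pathway genes. The shares of all genes under these settings are not given here, so these counts cannot be read against a background. Of the values of single genes under alternatives, 700 kept direction and side of the threshold, 19 lost the threshold, 10 gained it and 5 changed sign. The sign changes were all of Ticam1: with 1 library left out, its difference between HD-homo and HD-het ranged from -0.0575 to 0.123 (-0.0089 without HD-het replicate 3 and -0.0296 without HD-homo replicate 3), it was -0.0087 without replicate 3 of control and HD-het together, and its difference of HD-het from the midpoint ranged from -0.0040 to 0.177. Tlr2 in HD-het against control was lost without replicate 3 of control and HD-het together (0.60, adjusted p = 0.0507), and Tlr4 in HD-het against control passed with only these 2 lines in the fit (-0.35, adjusted p = 0.0113). The causes were not tested. Requiring at least 10 counts in every library removed Tlr1 and Tlr6, the genes whose values depth limits most. Scaling by DESeq2 size factors or library totals moved the median of all genes by less than 0.1 and changed no direction of a member.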
